A study of Danio rerio with 10 samples.

Results

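The nuclear genes of the mitochondrial respiratory chain were examined in testes of adult male zebrafish. Members were all genes whose array probe carries a single symbol beginning with nduf, sdha to sdhd, uqcr, cox4 to cox8 or atp5, which gave 102 of 19260 measured genes. Grouped by symbol, they comprised 39 subunit genes of complex I and 8 of its assembly factors. Complex II had 5 genes and 4 assembly factors, complex III 8 genes, complex IV 20 and complex V 18. Where a gene had several probes, the one with the highest mean over the 10 arrays was used. The TCDD group held 5 wild-type AB males exposed to waterborne 2,3,7,8-tetrachlorodibenzo-p-dioxin at 50 pg/ml for 1 h at 3 and again at 7 weeks after fertilization, and the DMSO group 5 such males given the solvent alone. Testes were taken at 1 year of age and each was hybridized to 1 Affymetrix whole-transcript array. The labels call the arrays biological replicates without naming tanks or clutches, so p-values measure the spread between these fish. The comparison asks whether a short exposure during sexual differentiation is followed by different levels of these transcripts in the adult testis.

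The respiratory chain sits in the inner mitochondrial membrane. Complexes I and II pass electrons from NADH and succinate to ubiquinone, complex III hands them on to cytochrome c, and complex IV reduces oxygen. Complexes I, III and IV pump protons, and complex V, the ATP synthase, uses the gradient to make ATP. Several complex IV subunits have more than 1 gene, and in mammals some copies are typical of heart and skeletal muscle (COX6A2, COX7A1), of lung (COX4I2) or of testis (COX6B2).

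Values are on the log2 scale as deposited, and differences are TCDD minus DMSO. Germ cell markers (3 of 3 measured) averaged 11.6 to 12.3 in TCDD arrays and 10.7 to 12.5 in DMSO arrays. Sertoli cell markers (5 of 5) averaged 10.4 to 11.5 and 9.80 to 10.9. Both lists were high in every array, but other testis markers were not high in DMSO 1. DMSO 1 differed from the rest, as its correlation with the other arrays over the 19260 genes averaged 0.788. That of each of the other arrays averaged 0.904 to 0.936. DMSO 1 had the lowest means for germ cells (10.7), meiotic cells (8.0), sperm (7.78), Leydig cells (7.89) and Sertoli cells (9.80). Its means were the highest for intestine (11.7) and exocrine pancreas (12.8). Its median over all genes was 7.89, close to its meiotic cell, sperm and Leydig cell means. Intestine marker means were 11.0 in TCDD 2, 9.22 in TCDD 3 and 7.90 in TCDD 4, while the other 6 arrays had means of 6.42 to 6.77. Exocrine pancreas marker means were 8.28 to 11.8 in TCDD and 8.73 to 9.66 in the DMSO arrays other than DMSO 1. Skeletal muscle marker means were 6.81 to 6.99 in TCDD and 6.91 to 7.89 in DMSO, with the highest in DMSO 3 and DMSO 2. In whole tissue, fewer cells of a type and less RNA per cell cannot be told apart.

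No respiratory chain gene passed the test between TCDD and DMSO testes, and most differences were small. Over the 102 genes, 50 were above 0 (49.0%, against 54.6% of all genes) and 52 below. For the counts above 0 over the 10 arrays given below, that share of all genes is the reference. The median difference of the members was -0.0029, against a median of 0.018 over all 19260 genes. For 85 of the 102 genes (83.3%) the difference lay within 0.2 of 0, against 75.3% of all genes, and 1, sdhda, exceeded 1.5-fold (2.32% of all genes). With limma and Benjamini-Hochberg adjustment over all genes, 0 members had an adjusted p under 0.05 (0% of all genes), where the smallest among them was 1.00. At an unadjusted p under 0.05 there was 1 higher member, sdhda (background 0.8%), and 1 lower member, ndufa5 (background 1.68%), or 2 of 102 in either direction (background 2.48%). The groups overlapped for every member, where 0.493% of all genes did not overlap. Without DMSO 1 there were 4 higher members (background 3.66%) and 2 lower ones (background 2.99%), the groups did not overlap for 2 members (background 2.51%), and 0 had an adjusted p under 0.05 (0% of all genes). They also did not overlap for 2 members without DMSO 2 (0.685% of all genes) and for 1 without TCDD 1, TCDD 5 or DMSO 4 (0.981%, 0.727% and 1.15% of all genes). The count of higher members was 0 without TCDD 1, TCDD 4, TCDD 5, DMSO 3 or DMSO 4 (0.613% to 1.21% of all genes). That of lower members was 0 without TCDD 3 or TCDD 4 (1.32% and 1.38% of all genes). The lower count was 2 without TCDD 1, TCDD 2, TCDD 5 or DMSO 4 (1.14% to 2.18% of all genes). Without DMSO 2 the number of members above 0 was 32. The median difference there was -0.060 for the members and 0.0059 over all genes.

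**Figure D1:**
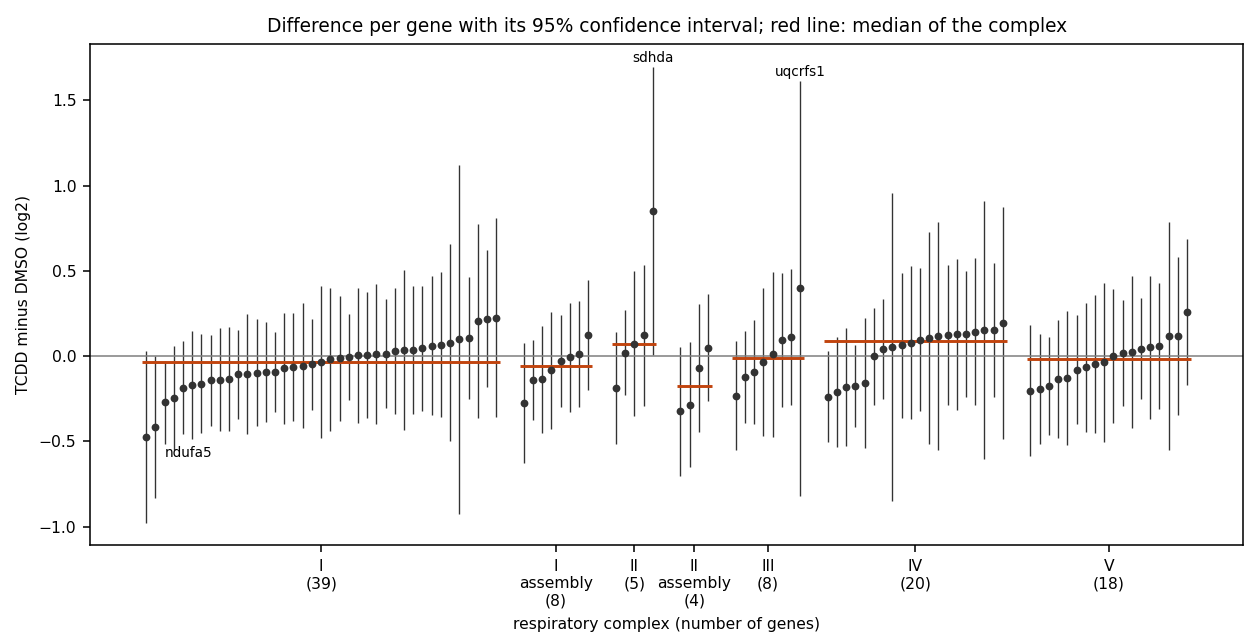
TCDD minus DMSO difference on the log2 scale (y axis) for each of the 102 genes, ordered within its complex (x axis, number of genes in brackets); bars are 95% confidence intervals from limma and red lines the median of a complex. The medians lie between -0.18 and 0.089, and the intervals of 100 genes include 0.

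The members' probes were read well above the dim end of the array. Brightness depends on the probe and is given only to show how well a gene was read, not how abundant its transcript was. Their median level stood at the 86.8 percentile of all probes, against 73.0 for all genes, and 4 members lay below the median probe. For 15 members there was more than 1 probe, and in 7 of these the probes gave differences on both sides of 0. The standard deviation over the 10 arrays had a median of 0.256 for the members and 0.283 for all genes, and 63 members were below the median over all genes. By complex, medians ran from 0.207 for complex I assembly factors to 0.296 for complex II and 0.297 for complex IV, where 2 of 5 and 9 of 20 genes were below that median. TCDD 2 gave the lowest value for 34 of the 102 genes (33.3%, against 12.5% of all genes) and the highest for 0. DMSO 1 gave the highest value for 32 (31.4%, against 22.9% of all genes) and DMSO 3 for 23 (22.5%, against 17.1%). Within an array the complexes did not always move as 1 block. In DMSO 1 the complex V genes had a median of 0.44 above the mean of the other 9 arrays and the complex I genes 0.029. In TCDD 2 complexes I, III, IV and V were close together, with medians of -0.35, -0.31, -0.27 and -0.30, against -0.11 over all genes. Complex II had -0.073 there.

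Complex I genes were on balance close to 0, with 16 of 39 subunit genes above 0 and a median difference of -0.034. ndufa5, a subunit of the peripheral arm (probe 13186110), was at 8.57, 8.28, 8.21, 8.29 and 8.41 in TCDD and at 8.53, 8.69, 8.81, 8.51 and 8.57 in DMSO. Every TCDD array but TCDD 1 lay below every DMSO array. The difference was -0.27 (95% CI -0.52 to -0.025, limma adjusted p = 1.00). ndufc2, a membrane arm subunit, was at 7.25, 6.94, 7.33, 6.93 and 7.35 in TCDD and at 7.04, 7.47, 7.57, 7.69 and 8.11 in DMSO. The lowest DMSO value was that of DMSO 1, and DMSO 5 was the highest of all arrays. Its difference was -0.42 (95% CI -0.83 to 0.0018), and leaving out single arrays gave -0.55 (without DMSO 1) to -0.28 (without DMSO 5). ndufa9b had a difference of -0.47 (95% CI -0.98 to 0.032), but its probe was dim, at the 8.64 percentile of all probes. Its paralogue ndufa9a, at the 84.5 percentile, had a difference of -0.097 (95% CI -0.41 to 0.22). ndufa3, the brightest complex I gene, had a mean of 12.1 ± 0.24 across TCDD testes and 12.1 ± 0.28 across DMSO testes (SD, n = 5 in either group, here and below).

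Assembly factors of complex I, which put its parts together without staying in the enzyme, had 2 of 8 genes above 0 and a median of -0.056. ndufaf8 had the most negative difference, -0.27 (95% CI -0.63 to 0.080), at the 41.2 percentile of all probes. ndufaf2 followed with -0.14 (95% CI -0.37 to 0.092) and ndufaf1 with -0.13 (95% CI -0.45 to 0.18). ndufaf1 ranged from -0.24 (without DMSO 1) to -0.080 (without TCDD 4), and the median of the 8 genes from -0.11 (without TCDD 3) to 0.024 (without TCDD 2). ndufaf4, the brightest of them, had a mean of 8.30 ± 0.25 across TCDD testes and 8.28 ± 0.15 across DMSO testes. The 8 genes all varied less than the median gene of the array.

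Complex II, the succinate dehydrogenase that also serves the tricarboxylic acid cycle, held the gene with the largest difference of the 102. It had 4 of 5 genes above 0 and a median of 0.074, which was 0.26 without DMSO 1 and 0.0071 without DMSO 5. sdhda (probe 13205108), 1 of 2 zebrafish genes for the membrane anchor SDHD, was at 9.41, 7.93, 7.19, 8.90 and 8.92 in TCDD and at 7.47, 8.0, 7.16, 7.46 and 8.0 in DMSO. TCDD 1, TCDD 4 and TCDD 5 were above all other arrays, while TCDD 2 and TCDD 3 lay within the range of the DMSO arrays. Its difference was 0.85 (95% CI 0.0082 to 1.70, limma adjusted p = 1.00). The high arrays TCDD 1, TCDD 4 and TCDD 5 were also those with the highest Sertoli cell marker means, at 11.1, 11.5 and 11.2, while the remaining 7 arrays held 9.80 to 10.9. Their liver marker means were 7.65, 7.74 and 11.1, with 8.82 and 7.40 in TCDD 2 and TCDD 3 and 6.93 to 8.02 in DMSO. The part of cell makeup in the result was not tested. The paralogue sdhdb did not share the pattern, at 8.79, 8.33, 9.03, 8.38 and 8.85 in TCDD and at 8.95, 8.82, 8.93, 8.77 and 8.84 in DMSO (difference -0.19, 95% CI -0.52 to 0.14). The gap between both paralogues, sdhda minus sdhdb within an array, was 1.04 higher in TCDD (exact two-sided permutation p = 0.0794, adjusted over 28 isoform pairs 0.741). Leaving out single arrays gave 0.83 (without TCDD 1) to 1.45 (without TCDD 3, exact permutation p = 0.00794, adjusted 0.222).

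sdha and sdhb spread less among the TCDD fish than among the DMSO fish. For sdhda (SD 0.90 in TCDD, 0.37 in DMSO) and sdhdb (0.31 and 0.077) the order was the reverse. The share of all genes that spread less among the TCDD fish was not counted. sdhb, the iron-sulfur subunit, had a mean of 11.2 ± 0.11 across TCDD testes and 11.1 ± 0.42 across DMSO testes. sdha, the catalytic flavoprotein, ranged from 9.31 to 9.56 in TCDD and from 8.89 to 10.05 in DMSO. Both genes were highest in DMSO 1. A second probe of sdha, at the 24.3 percentile of all probes, gave a difference of -0.063, against 0.074 for the one used. sdhc, the other membrane anchor, ranged from 9.58 to 9.86 in TCDD and from 9.41 to 9.81 in DMSO; sdha and sdhc were named after their values were seen. Of the assembly factors, sdhaf4 differed by -0.32 (95% CI -0.70 to 0.056) and sdhaf1 by -0.28 (95% CI -0.65 to 0.083), with DMSO 1 at 8.20 and the other DMSO arrays at 7.31 to 7.56. Without DMSO 1 the sdhaf1 difference was -0.14, and without TCDD 1 that of sdhaf4 was -0.20. sdhaf2 and sdhaf3 differed by -0.068 and 0.049.

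**Figure D2:**
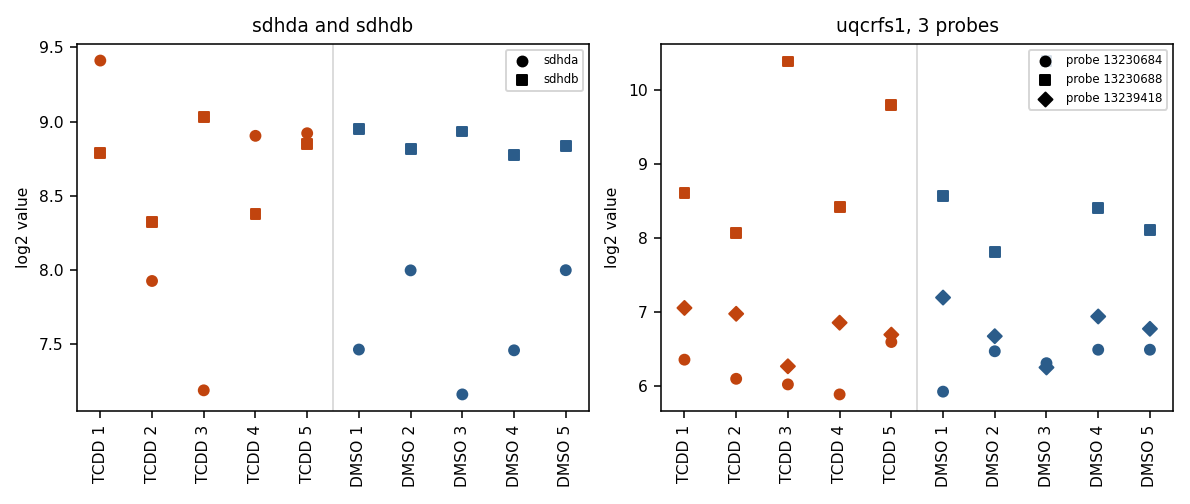
Log2 value (y axis) in each of the 10 arrays (x axis, red TCDD, blue DMSO) for sdhda and sdhdb on the left and for the 3 probes of uqcrfs1 on the right. sdhda reaches 8.90 or more in 3 TCDD arrays and 8.0 or less elsewhere, and uqcrfs1 probe 13230688 reaches 9.80 or more in TCDD 3, TCDD 5 and DMSO 3.

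Complex III had 4 of 8 genes above 0 and a median of -0.010, and contained the member that varied most between fish. uqcrfs1 encodes the Rieske iron-sulfur protein, which takes electrons from ubiquinol. Its brightest probe (13230688) was at 8.61, 8.07, 10.4, 8.42 and 9.80 in TCDD and at 8.57, 7.81, 10.4, 8.41 and 8.11 in DMSO. TCDD 3, TCDD 5 and DMSO 3 formed a high set that crossed the groups, and the difference of 0.40 had an interval of -0.82 to 1.62. Without DMSO 3 it was 0.83 and without TCDD 3 0.065. The other probes of the gene did not show these high arrays. Probe 13239418 was lowest in DMSO 3 (6.25) and TCDD 3 (6.27), while the remaining 8 arrays held 6.67 to 7.20. Probe 13230684 lay between 5.89 and 6.59 throughout.

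The remaining complex III genes stayed within narrower ranges. uqcr10, a small subunit, differed by -0.23 (95% CI -0.55 to 0.089), with DMSO 1 at 7.5 against 7.01 or less in the other 9 arrays, and by -0.12 without DMSO 1. uqcrb, which contributes to ubiquinone binding, differed by -0.12 (95% CI -0.39 to 0.15). Of the core proteins, uqcrc2a had a mean of 8.63 ± 0.14 across TCDD testes and 8.66 ± 0.44 across DMSO testes. uqcrc2b, the brightest, had 10.6 ± 0.33 across TCDD testes and 10.6 ± 0.40 across DMSO testes. uqcrc1, named after its values were seen, differed by 0.096, while its other, dimmer probes gave -0.40 and -0.29.

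Complex IV, cytochrome c oxidase, had 14 of 20 genes above 0 and a median of 0.089, which was 0.036 without DMSO 1. cox7b differed by -0.24 (95% CI -0.50 to 0.031) and was narrow in TCDD, from 8.55 to 8.67, against 8.63 to 9.22 in DMSO. The highest value was that of DMSO 1, without which the difference was -0.14. cox7c, a small structural subunit, differed by -0.18 (95% CI -0.42 to 0.063). cox5b2, the brightest member of the chain, had a mean of 12.7 ± 0.24 across TCDD testes and 12.6 ± 0.36 across DMSO testes. cox4i1, the common form of subunit 4, stood at 12.5 ± 0.31 across TCDD testes and 12.4 ± 0.31 across DMSO testes.

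Isoforms of a subunit were compared within each array, so that a shift of the whole array cancels. The gap between 2 probes also holds their unequal brightness, and only its change between arrays was read. Over 28 pairs from 15 families, 0 had an exact two-sided permutation p under 0.05 and the smallest adjusted p was 0.741, where 0.00794 is the smallest p that 5 against 5 arrays can give. The smallest p belonged to the pair cox5ba minus cox5bb, copies of subunit 5b, which was 0.37 lower in TCDD (difference -0.37, exact permutation p = 0.0714). The gap was -0.90, -0.22, -0.30, -0.41 and -0.38 in TCDD and -0.20, -0.44, 0.017, -0.10 and 0.34 in DMSO. TCDD 1 was the most negative and DMSO 2 lay among the TCDD arrays. A second cox5ba probe, at the 65.6 percentile against 69.5 for the one used, differed by -0.092 between the groups, against -0.21. In DMSO 5, the array with the highest gap, it was at 7.39 against 8.04. cox5b2 minus cox5ba was 0.34 higher (exact permutation p = 0.0794). A second cox5b2 probe, at the 50.4 percentile against 99.6 for the one used, differed by -0.085 between the groups, against 0.13. The alternatives without 1 array gave exact permutation p-values under 0.05 for 4 of the 28 pairs, none with an adjusted p under 0.222.

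The subunit 6b pair depended on DMSO 1. cox6b1 (probe 13153038) was at 9.71, 9.92, 9.78, 9.88 and 9.71 in TCDD and at 10.96, 9.10, 9.41, 9.34 and 9.21 in DMSO. DMSO 1 was above all TCDD arrays and the other 4 DMSO arrays were below all of them. Over the 10 arrays the difference was 0.20 (95% CI -0.49 to 0.88, limma adjusted p = 1.00), and without DMSO 1 it was 0.53 (95% CI 0.29 to 0.78, limma adjusted p = 0.716). Leaving out other single arrays gave as little as 0.070, without DMSO 2. cox6b2, whose mammalian counterpart is the testis form, was flat, at 11.6 ± 0.14 across TCDD testes and 11.6 ± 0.21 across DMSO testes. The gap cox6b1 minus cox6b2 was -1.90, -1.41, -1.80, -1.76 and -2.0 in TCDD and -0.34, -2.33, -2.20, -2.41 and -2.56 in DMSO. It was 0.20 higher in TCDD over all arrays (exact permutation p = 0.738) and 0.60 higher without DMSO 1 (exact permutation p = 0.00794, the smallest possible there, adjusted over the pairs 0.222). Leaving out DMSO 5 gave 0.048. Intestine marker means were 6.47 to 11.0 in TCDD and 6.42 to 6.77 in the DMSO arrays other than DMSO 1 (11.7), and their part in the difference was not tested.

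**Figure D3:**
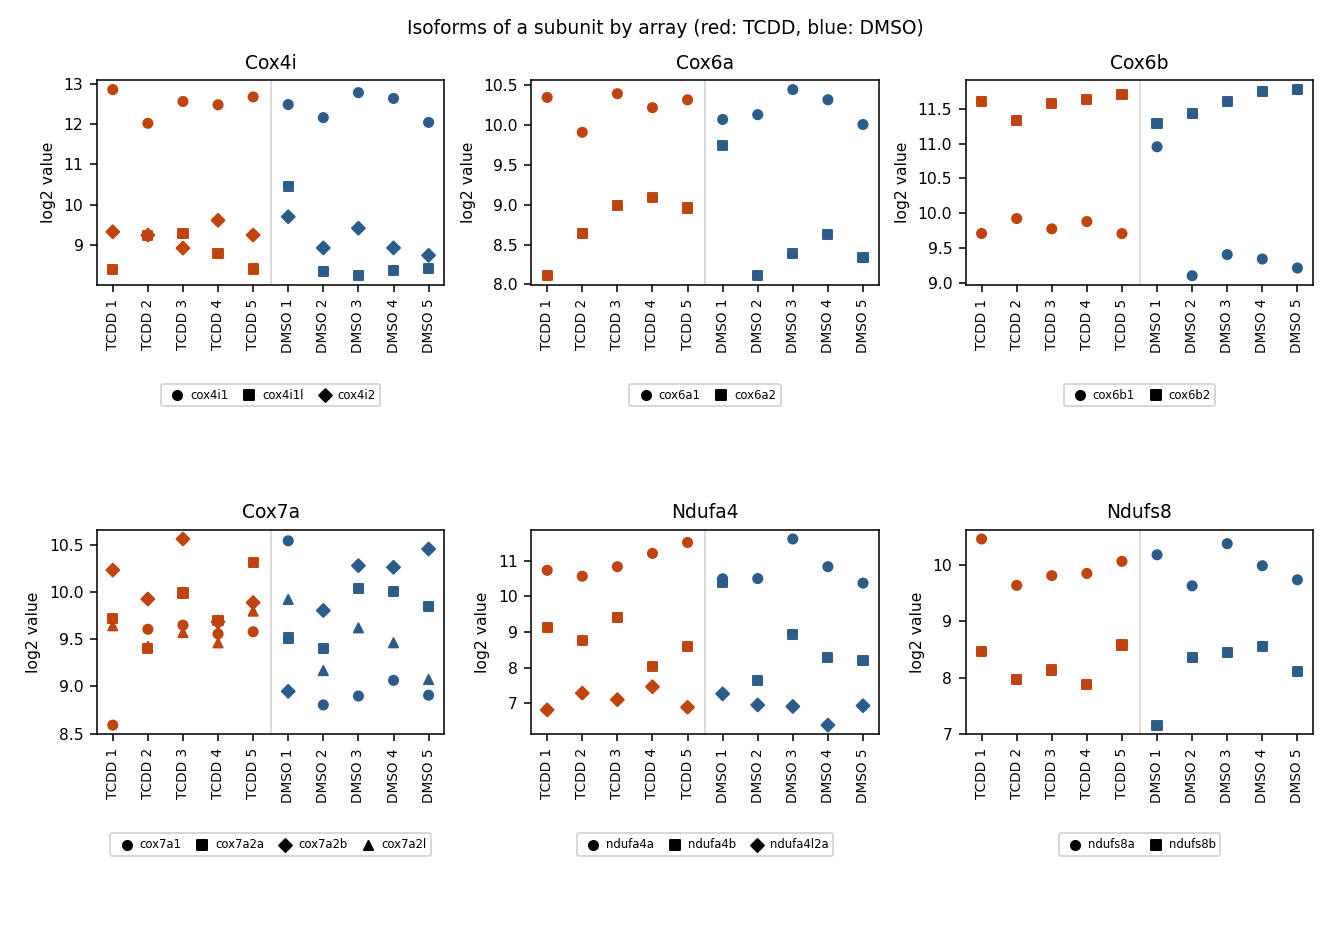
Log2 value (y axis) of the isoforms of 6 subunits in each of the 10 arrays (x axis, red TCDD, blue DMSO, shape for the gene). In DMSO 1, cox4i1l, cox4i2, cox6a2, cox6b1, cox7a1, cox7a2l and ndufa4b lie above the values of all other arrays. There cox6b2, cox7a2b and ndufs8b lie below those of all other arrays.

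Other families showed the same contrast between DMSO 1 and the rest of the arrays, in either direction. In 20 of the 28 pairs the gap in DMSO 1 lay outside the range of the other 9 arrays, above it in 10 and below it in 10. Pairs of a family share genes, so they are not independent. Among all single genes, DMSO 1 was above the range of the other 9 arrays for 22.9% and below it for 28.8%. A gap between 2 genes is another measure, and its share over other gene pairs was not counted. The count is therefore not read as particular to isoforms. cox4i1l was at 10.4 in DMSO 1, at 9.22 and 9.28 in TCDD 2 and TCDD 3, and at 8.79 in TCDD 4, while the other 6 arrays held 8.23 to 8.41. These are the 4 arrays with intestine marker means of 7.90 or more, and the part of intestine in this value was not tested. cox6a2 stood at 9.74 and cox7a1 at 10.5 in DMSO 1, against at most 9.09 and 9.65 elsewhere. DMSO 1 had marker means of 6.91 for skeletal muscle, 6.95 for heart, 11.7 for intestine and 12.8 for exocrine pancreas, and the part of these tissues in both values was not tested. cox7a1 was at 8.59 in TCDD 1, while the remaining TCDD arrays held 9.56 to 9.65. cox7a2b moved the other way, at 8.95 in DMSO 1 and 9.68 to 10.6 elsewhere, so that cox7a1 minus cox7a2b was 1.59 in DMSO 1 and between -1.64 and -0.13 in the other arrays. cox4i2, whose mammalian counterpart is the lung form, was at 9.70 in DMSO 1, just above the 9.61 of TCDD 4.

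Between the groups these genes did not separate. cox4i1l differed by 0.055 (95% CI -0.85 to 0.96), cox6a2 by 0.12 (95% CI -0.55 to 0.79), cox7a1 by 0.15 (95% CI -0.60 to 0.91) and cox7a2b by 0.11 (95% CI -0.51 to 0.73). The values turned on single arrays. Without DMSO 1 they were 0.48, 0.39, 0.48 and -0.14. At the other end stood -0.076 for cox4i1l without DMSO 3, -0.016 for cox6a2 and 0.043 for cox7a1 without DMSO 2, and 0.23 for cox7a2b without DMSO 5. cox4i2 differed by 0.13 (95% CI -0.31 to 0.57), and cox6a1, the common form of subunit 6a, by 0.043 (95% CI -0.25 to 0.34). cox7a2a and cox7a2l, the second of which helps join complexes III and IV, differed by 0.064 and 0.13. The subunit 5a copies cox5aa and cox5ab differed by -0.18 and -0.16, and by -0.035 and -0.058 without DMSO 1, where cox5aa was at 10.1 in DMSO 1 and between 9.24 and 9.51 elsewhere.

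**Figure D4:**
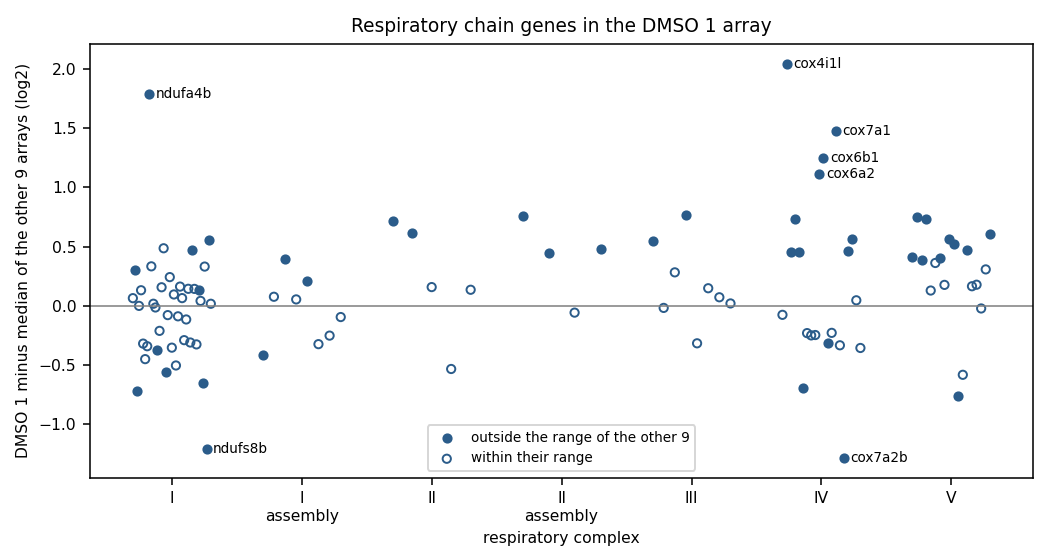
DMSO 1 minus the median of the other 9 arrays on the log2 scale (y axis) for each gene, by complex (x axis); filled points lie outside the range of the other 9 arrays. Of the 102 genes, 32 lie above and 10 below that range.

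Across the chain, DMSO 1 lay above the other 9 arrays for 31.4% of the members and below them for 9.80%, against 22.9% and 28.8% of all genes. In complex V it was above for 9 of 18 genes and below for 1, in complex IV for 9 and 3 of 20, and in complex I for 5 and 5 of 39. Isoforms counted under complex I by their symbol were among the most distant. The ndufa4 family was named for complex I and is counted there, but is placed in complex IV in mammals. Of this family, ndufa4b was at 10.4 in DMSO 1 and 7.65 to 9.42 elsewhere. ndufs8b, a copy of an iron-sulfur subunit, was at 7.16 and 7.88 to 8.58, while its paralogue ndufs8a was at 10.2, within the range of 9.63 to 10.5. Between the groups ndufa4a, ndufa4b and ndufa4l2a differed by 0.21, 0.098 and 0.22, and ndufs8a and ndufs8b by -0.018 and 0.079, each with an interval that included 0. Leaving out single arrays took ndufa4b from -0.16 (without DMSO 2) to 0.52 (without DMSO 1) and ndufs8b from -0.16 (without DMSO 1) to 0.19 (without DMSO 4). The acyl carrier copies ndufab1a and ndufab1b differed by 0.067 and -0.070.

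Complex V had 9 of 18 genes above 0 and a median of -0.017, which was 0.032 without DMSO 1. atp5f1c, the gamma subunit that turns within the catalytic head, was at 10.5, 10.2, 10.3, 10.4 and 10.6 in TCDD and at 10.7, 9.93, 10.4, 10.1 and 9.59 in DMSO. TCDD values were close together, and DMSO 1 and DMSO 5 marked both ends. Its difference was 0.26 (95% CI -0.17 to 0.69), and leaving out either end gave 0.40 without DMSO 1 (95% CI 0.051 to 0.75, limma adjusted p = 0.716) and 0.12 without DMSO 5. atp5fa1, the catalytic head's alpha subunit and the brightest complex V gene, had a mean of 11.4 ± 0.27 across TCDD testes and 11.4 ± 0.39 across DMSO testes. atp5mf, a membrane subunit, differed by -0.17 (95% CI -0.46 to 0.11), and by -0.081 without DMSO 1, its highest array.

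The proton-carrying c ring is encoded by atp5mc1, atp5mc3a and atp5mc3b, and atp5mc1 varied most within complex V. It was at 11.3, 10.2, 11.3, 11.2 and 11.2 in TCDD and at 11.6, 10.4, 11.2, 11.1 and 10.2 in DMSO. TCDD 2, DMSO 2 and DMSO 5 were low, and its second probe was lowest in the same 3 arrays (8.0, 7.97 and 8.09, against 8.77 or more elsewhere). The difference was 0.12 (95% CI -0.55 to 0.79), against -0.078 for atp5mc3a and 0.062 for atp5mc3b. A second, dimmer probe of atp5mc3b gave -0.16, on the other side of 0. The inhibitor genes atp5if1a and atp5if1b, whose products block ATP hydrolysis when the gradient fails, differed by -0.047 and -0.19. Their gap was 0.14 higher in TCDD (exact permutation p = 0.452), with 0.046 without DMSO 3 and 0.30 without DMSO 1 (exact permutation p = 0.0397, adjusted 0.467). The e subunit copies atp5mea and atp5meb differed by 0.12 and -0.037.

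**Figure D5:**
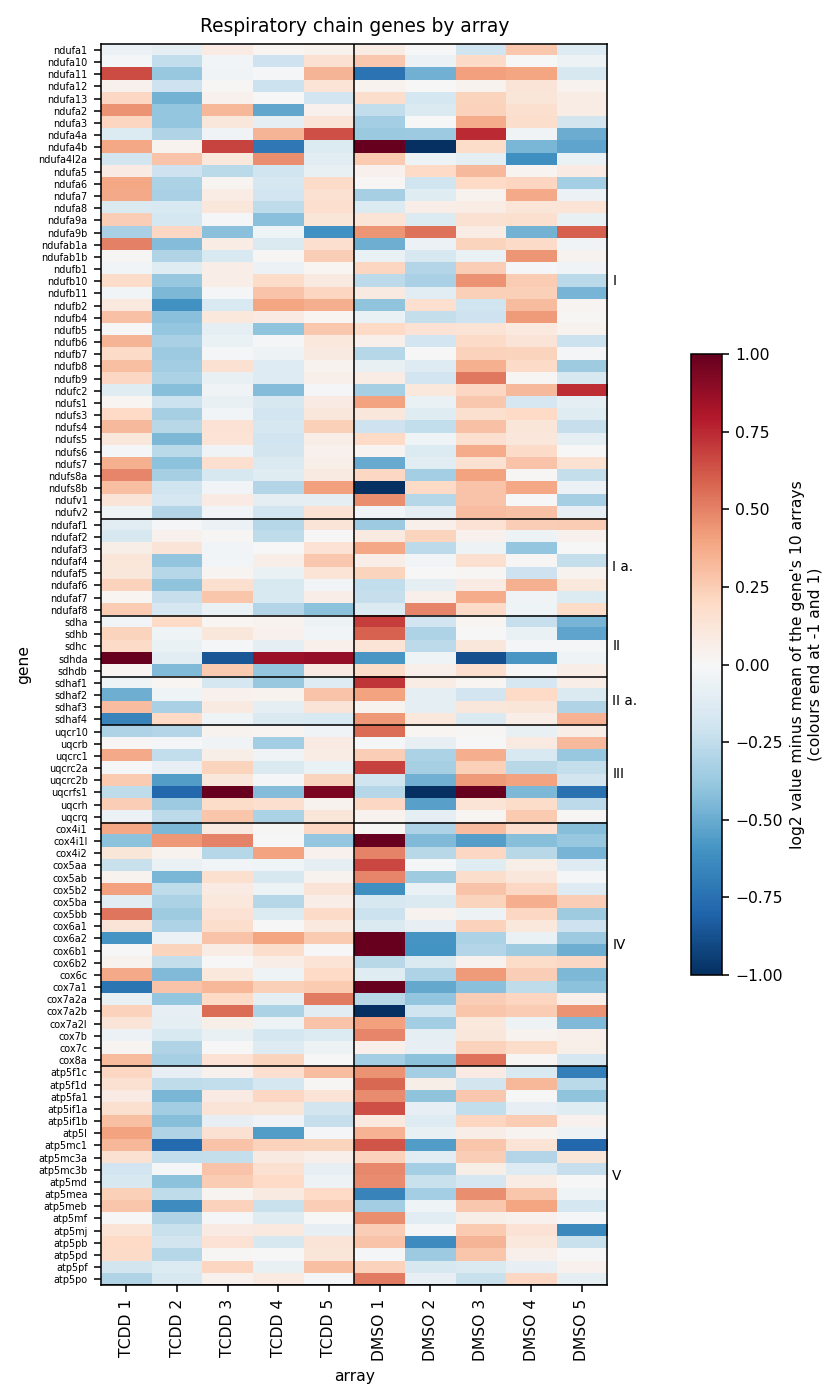
Log2 value minus the gene's mean over the 10 arrays (colour, from -1 in blue to 1 in red) for the 102 genes (rows, by complex, a. for assembly factors) in each array (columns, TCDD left of the line and DMSO right). TCDD 2 is blue in most rows and holds the lowest value of 34 genes.

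Other genes of mitochondrial respiration were read from lists of 4 kinds. Of 11 measured regulators 4 were above 0, with a median difference of -0.041 (-0.071 without DMSO 1) and 1 at an unadjusted p under 0.05, against 0.8% of all genes in that direction. This was esrra, the estrogen-related receptor alpha, which activates respiratory genes in mammals. esrra was at 8.39, 8.47, 8.33, 8.60 and 8.49 in TCDD and at 8.07, 7.96, 8.25, 8.19 and 8.15 in DMSO. Every TCDD array lay above every DMSO array, as for 0.493% of all genes in either direction. The difference was 0.33 (95% CI 0.10 to 0.56, limma adjusted p = 1.00), and 0.32 without DMSO 1. nrf1, gabpa and polg2 differed by 0.12, -0.17 and -0.17, with intervals that included 0.

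Assembly factors outside the member list had 10 of 32 genes above 0 and a median of -0.049, with 0 higher and 2 lower at an unadjusted p under 0.05 (background 1.68%). These were coa6 at -0.32 (95% CI -0.63 to -0.00054) and cox17 at -0.35 (95% CI -0.71 to -0.00039), which both serve copper delivery to complex IV. Without DMSO 1 they were -0.22 and -0.24, and the list's median was -0.11. pet100 and bcs1l differed by -0.25 and -0.18. Electron carriers, quinone synthesis and exchange proteins had 10 of 22 genes above 0 and a median of -0.037, which was 0.047 without DMSO 1, with 0 genes at an unadjusted p under 0.05. vdac1, the outer membrane channel, differed by 0.31 (95% CI -0.14 to 0.76), and coq7, pdss2 and coq3 by -0.26, -0.17 and -0.17. Tricarboxylic acid cycle genes had 12 of 15 above 0 and a median of 0.087, which was 0.040 without DMSO 1, also with 0 genes at that level. sucla2 and suclg2, of the succinyl-CoA synthetases, differed by 0.30 and 0.31, suclg1 by -0.23 and ogdha by 0.16.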

How the data were processed

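The deposited table held the authors' values for 75212 probes in 10 arrays, read as log2 because they ran from 1.25 to 14.6. Labelling followed the Affymetrix whole-transcript protocol per the labels, while no source used here gives the background correction, normalization or log base. Of the probes, 20806 had 1 gene symbol in the platform annotation. All 102 members matched a current RefSeq entry by Entrez identifier, and 4 probes that list a member beside another symbol were not used. Groups were compared with limma 3.58.1 (R 4.3.3) over all 19260 genes, with Benjamini-Hochberg adjustment. The fit was tried on simulated data with independent noise per gene. No simulated array stood apart as DMSO 1 did, so that trial does not speak to such an array. Precision is limited by having 5 arrays per group, and the members' median standard error was 0.17.

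Members and lists were chosen with earlier results of these data known. Named genes were, per complex, the 3 with the smallest p, the brightest and the most variable, all genes of groups of up to 4, and all isoforms. In the other lists up to 4 genes were named by smallest p. sdha and sdhb were not taken as a pair. Same-numbered arrays of both groups had correlations of -0.58 to 0.29 in their deviations from group means, so they were treated as unpaired. Alternatives were the replicate number as a block, other normalizations, probe means, a filter on dim probes, array weights, a variance trend and leaving out arrays. Marker lists covered the testis cell types, oocytes (6.70 to 8.07 in TCDD, 6.68 to 7.19 in DMSO), heart (6.61 to 6.71 and 6.63 to 6.97), skeletal muscle, intestine, pancreas and liver.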

Additional observations from a re-analysis of the deposited data

Results flagged for a closer look

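Among the 56 named genes, each group of 5 arrays was searched for 1 array far from the other 4 (gap over range above 0.71). Of 112 groups, 11 held such an array (9.82%), against 11.3% of the groups over all genes. Over all 102 members, named or not, it was 13 of 204 groups (6.37%). Chance alone flags about 1 in 20, but the named genes include the most variable of each complex, so their count is a description. DMSO 1 was the distant array in 7 of the 11 groups of named genes. It was at 10.4 for cox4i1l (next 8.41), 10.96 for cox6b1 (next 9.41), 10.5 for cox7a1 (next 9.06), 10.1 for cox5aa (next 9.51), 9.43 for atp5if1a (next 8.71), 8.20 for sdhaf1 (next 7.56) and 7.5 for uqcr10 (next 7.01). In the TCDD group, TCDD 2 was low for atp5mc1 at 10.2 (next 11.2) and for atp5fa1 at 10.9 (next 11.5). TCDD 1 was low for cox7a1 at 8.59 (next 9.56), and TCDD 4 for uqcrb at 7.57 (next 7.89).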

How the results depend on the processing

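No member passed an adjusted p of 0.05 with limma under any of the 18 alternatives, where the smallest adjusted p of a member ranged from 0.630 (array weights) to 1.00. Counts at an unadjusted p under 0.05 were unstable. Higher and lower members numbered 5 and 4 with array weights (3.83% and 3.44% of all genes), and 4 and 2 without both DMSO 1 and TCDD 2 (3.77% and 2.41%), an alternative chosen after seeing the data. The lower count was 0 with the replicate block or median centring (1.22% and 1.18% of all genes) and 2 with a variance trend (1.88%). Leaving out single arrays gave 0 to 4 higher (0.493% to 3.66% of all genes) and 0 to 2 lower members (1.01% to 2.99%). Members above 0 then numbered from 32 without DMSO 2 to 61 without TCDD 2, where the median differences over all genes were 0.0059 and 0.034. Members whose groups did not overlap numbered 0 to 2 (0.685% to 2.51%). That last count was 1 after quantile normalization (0.493% of all genes) and 2 without both arrays (3.56%). The cause of these changes was not tested. Medians by complex moved by less than the SD of their array medians under every alternative run, but those near 0 changed sign (all members -0.060 to 0.059 without single arrays). That SD describes single arrays, not a difference of group means. The complex II median of 0.074 was 0.26 without DMSO 1, 0.24 with array weights and 0.21 without both DMSO 1 and TCDD 2. Median centring moved the median of all genes to 0.059, and the replicate block changed no adjusted call. Of 1303 alternative values for the 84 named genes and pairs, 167 lay on the other side of 0 from the value reported, in 45 of them. For labelling a result as reversed under an alternative, a direction was read only where a difference exceeded its standard error. Counts above 0 in the text use the plain sign. Under that rule no result was labelled as reversed. The rule was adopted after these sign changes were seen and sets small differences aside, so this does not speak to stability. Without DMSO 1, atp5f1c, cox4i1l, cox6b1 and cox7a1 were the higher members (background 3.66%) and ndufa5 and ndufc2 the lower ones (background 2.99%). The groups then did not overlap for cox6b1 and ndufc2, against 2.51% of all genes.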
